A study of Arabidopsis thaliana with 2 samples.

Results

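The mitochondrion-encoded genes are the genes carried by the small genome of the mitochondrion itself. They were taken as every probe set whose annotation gave a single gene with a symbol beginning with nad, cox, ccb, matR or orf, which selected 23 probe sets for 16 genes among 22746 non-control probe sets, of which 13513 had a single gene listed. The rule used gene names only and no measured value, although it was chosen with earlier results of these data known. All 16 symbols, or their synonyms, were found among the 33 protein-coding genes of the mitochondrial genome in the TAIR10.1 assembly, although the annotation's older gene identifiers were not in that assembly's table.

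The study measured RNA of axillary buds on 1 single-colour expression array per line, in 2 auxin-resistant Arabidopsis thaliana lines. In axr1-12 the AXR1 gene, which acts in the RUB modification pathway that auxin signalling needs, has lost function, and the plants branch more than wild type. In axr3-1 the auxin response repressor IAA17, encoded by AXR3, is stabilised by a dominant mutation, and apical dominance is strong. Both lines are ethyl methanesulfonate mutants in the Col-0 background, no wild type was hybridised, and both were grown on compost at 21 °C with 16 h light and 8 h dark per day, following a cold period of 3 days. The buds of axr1-12 and axr3-1 carry the same description in the labels, an extension to about 2 mm, and the series title frames the contrast as dormant against active axillary meristems without saying which line stands for which. The sources used here do not say how many plants gave each RNA sample. With 1 array per line no difference below has a test, a p-value or a standard error, and the number of arrays limits its precision. Fewer cells of a type and less RNA per cell cannot be told apart in such tissue samples. Of the bud and meristem markers with a probe set listed, PHV gave 169 and LAS 61.8 units in axr1-12, against 147 and 69.8 units in axr3-1, whereas CLV3 gave 2.74 and 7.29 units and was not above the dim controls described below. Of the markers of other tissues, 1 had a probe set listed, the anther regulator AMS, at 66.5 units in axr1-12 and 46.8 units in axr3-1, a log2 difference of 0.51. Its part in the values below was not tested. No probe set was listed for AXR1 or AXR3, so the lines were not checked against their mutated genes.

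Plant mitochondria keep a small set of protein genes of their own, mostly for the respiratory chain, for the pathway that attaches haem to cytochromes c, and for mitochondrial ribosomes. The nad genes encode membrane and matrix subunits of complex I, which passes electrons from NADH to ubiquinone, and the cox genes encode the catalytic core of complex IV, which reduces oxygen. Many of these transcripts need intron splicing and C-to-U editing by nucleus-encoded factors, and the transcripts of nad1, nad2 and nad5 are joined from separately transcribed pieces by trans-splicing. In plant mitochondria a poly(A) tail usually marks an RNA for decay rather than for stability. The labelling here started from an oligo(dT) primer, so the signal of a mitochondrial transcript depends on how much of it was primed as well as on its amount.

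Signals are given as the deposited MAS5 intensities, in arbitrary units. Differences are log2 values of axr1-12 minus axr3-1 after a small rescaling by the median ratio of all probe sets, with signals under a floor of 15.3 units raised to it. The highest of 27 bacterial control probe sets without high signal reached 29.4 units, and no fold is given for a probe set that did not exceed this on both arrays. By that measure 14 of the 23 probe sets, covering 11 of the 16 genes, gave usable signal in both lines. Another 8 stayed under 29.4 units on both arrays, and 1 exceeded it in axr1-12 only. The stricter filter used for comparisons, a mean log2 signal at or above the median of all probe sets, was passed by 10 probe sets of 8 genes.

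None of the 8 genes past the filter differed 2-fold between the lines in either direction, where 6.35% of all 11373 probe sets past the filter did. With 8 genes this count cannot be read as lower than that share. With the brightest probe set standing for each gene, the median log2 difference of the 8 genes was -0.08, from -0.52 to 0.19. The median over all probe sets past the filter was 0.02. Of the 8 genes 3 had a higher and 5 a lower signal in axr1-12, and 1 of the 3, nad9, was no longer higher after quantile scaling. For 32 genes of the array with exactly 2 probe sets past the filter, the root mean square disagreement between the paired log2 differences was 0.37, and 7 of the 8 mitochondrial genes differed by less than that. The exception by the brightest sets was nad4, but a second nad1 set past the filter, 257322_at, was at -0.70. The value of 0.37 carries the error of both probe sets of a pair and no variation between replicate arrays or plants. It is therefore not a noise limit for a single value.

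**Figure D1:**
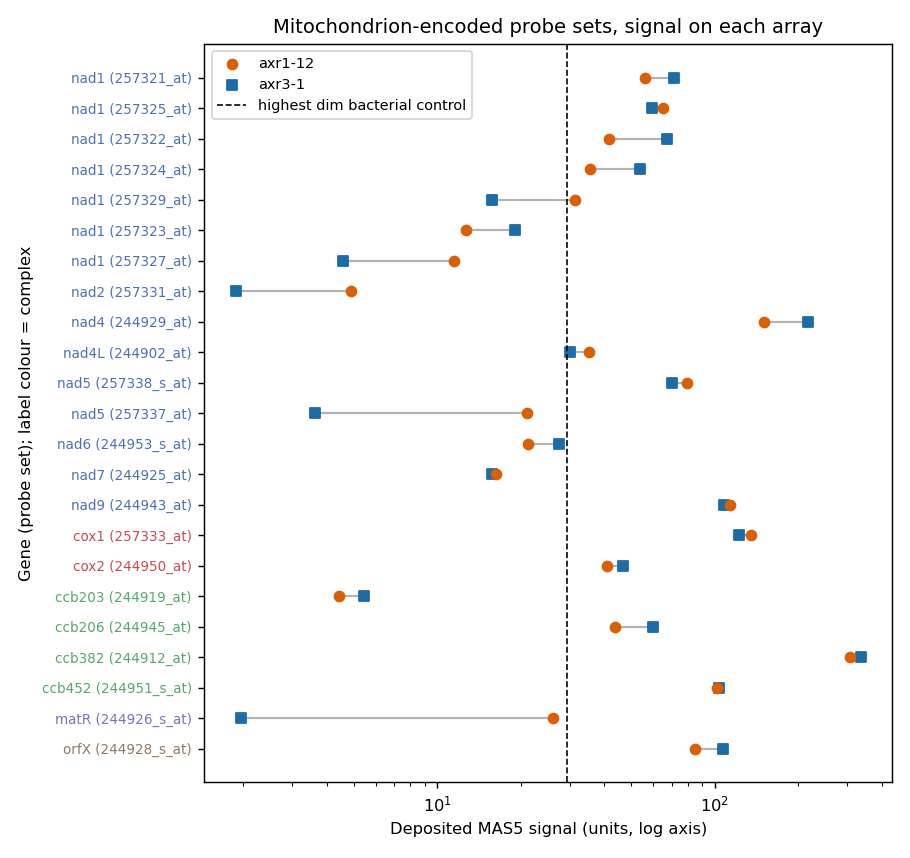
Deposited signal of each of the 23 mitochondrion-encoded probe sets in axr1-12 (circles) and axr3-1 (squares), 1 array per line, on a log axis. The dashed line marks 29.4 units, the highest dim bacterial control. The 14 probe sets to its right on both arrays have short connecting lines, and the widest gaps belong to sets that lie left of it on both arrays, such as matR at 26.1 units in axr1-12 and 1.97 units in axr3-1.

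Complex I was the best represented group, with 8 genes and 15 probe sets. Over its 4 genes past the filter (nad1, nad4, nad5 and nad9), each by its brightest set, the median log2 difference was -0.14, from -0.52 to 0.19. Of these, 2 genes, nad9 among them, were higher and 2 lower in axr1-12. With nad4L added, over the 5 genes above the dim controls, the median was 0.07, so the sign of the group's median turned with 1 gene and is not interpreted.

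Among the membrane subunits, nad4 gave 150 units in axr1-12 and 216 units in axr3-1. Its signal was 1.44-fold lower in axr1-12, a log2 difference of -0.52, which was the largest among the 8 genes with the brightest probe set standing for each gene. The transcript of nad4 is assembled from exons in a single precursor by ordinary splicing.

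The nad5 gene was read by 2 probe sets. The brighter one, whose suffix marks probes shared by more than 1 transcript, gave 79.8 units in axr1-12 and 70.2 units in axr3-1, a log2 difference of 0.19. The other gave 21.1 units in axr1-12 and 3.62 units in axr3-1, both under the dim controls. Thus the only usable set listed for nad5 was the set with shared probes.

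The small membrane subunit gene nad4L gave 35.4 units in axr1-12 and 30.2 units in axr3-1, close to the dim controls on both arrays, with a log2 difference of 0.23. Probe sets for the remaining membrane subunit genes nad2 and nad6 were not above those controls. The nad2 set gave 4.88 units in axr1-12 and 1.88 units in axr3-1, and the nad6 set 21.2 and 27.4 units.

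Of the genes for the matrix arm of complex I, nad9 gave 113.6 units in axr1-12 and 108 units in axr3-1, 1.05-fold apart. The nad7 set gave 16.4 and 15.8 units in axr1-12 and axr3-1, just over the floor and under the dim controls. The matrix arm is thus described by nad9 alone.

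The nad1 gene had 7 probe sets of its own, and they did not give 1 answer. Probe set 257321_at gave 56.1 units in axr1-12 and 71.6 units in axr3-1, and 257322_at gave 41.6 and 67.5 units. Probe set 257324_at gave 35.6 and 54.0 units in axr1-12 and axr3-1, and 257325_at 65.0 and 59.4 units. Thus 3 of the 4 usable sets were lower in axr1-12, by log2 differences of -0.35, -0.70 and -0.60, and the fourth was higher, by 0.13. The 4 values had a standard deviation of 0.37 and spanned 0.83 on the log2 scale. The brightest sets of the 10 other usable member genes had a standard deviation of 0.27 and spanned 0.75. The disagreement within nad1 was therefore as wide as the whole spread among the other genes, and no single value stands for nad1.

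The 3 remaining nad1 sets were too dim for a fold. Probe set 257329_at gave 31.4 units in axr1-12 and 15.8 units in axr3-1, which makes it the single member above the dim controls in only 1 line. Probe set 257323_at gave 12.7 and 19.0 units, and 257327_at gave 11.5 and 4.59 units, in axr1-12 and axr3-1. A further 2 probe sets listed nad1 together with a nuclear gene. The first gave 30.0 units in axr1-12 and 45.3 units in axr3-1, and the second 26.3 and 20.5 units. Which exon, intron or neighbouring stretch of nad1 each set reads is not given in the tables used here, and whether that explains their disagreement was not tested.

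**Figure D2:**
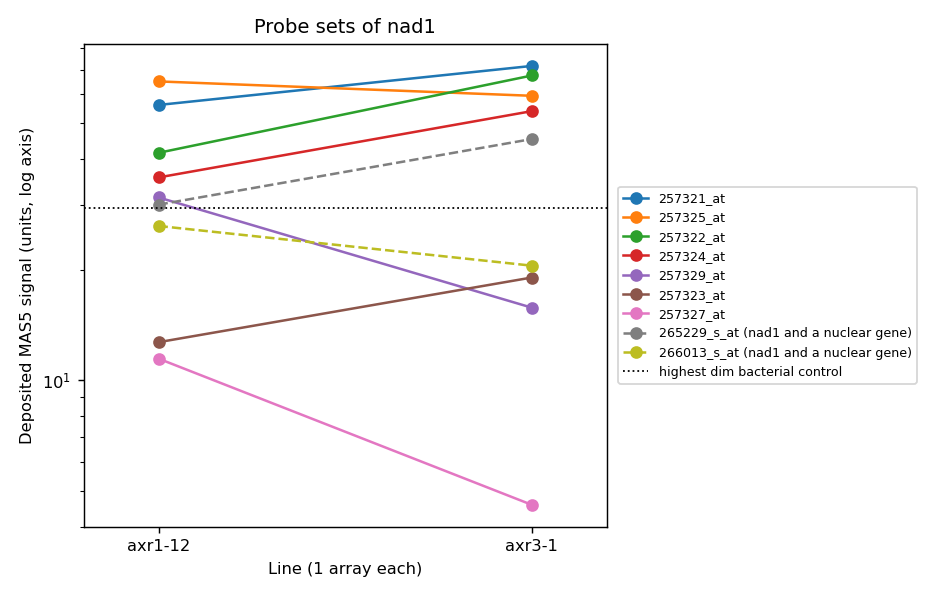
Signal of the 9 probe sets listed with nad1, on a log axis, with axr1-12 at the left and axr3-1 at the right, 1 array each. Solid lines are the 7 sets listed with nad1 alone and dashed lines the 2 listed with nad1 and a nuclear gene, and the dotted line marks 29.4 units. Lines cross and run in both directions, among the dim sets as well as the brighter ones.

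The maturase gene matR lies within the last intron of nad1 and encodes a protein related to intron splicing factors. Its probe set gave 26.1 units in axr1-12 and 1.97 units in axr3-1. This was the widest ratio between the lines among the deposited signals of the 23 sets, yet both values lay under the dim controls, so no fold is given.

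Complex IV was represented by cox1 and cox2, and the values of both were close between the lines. The cox1 gene, for the subunit that holds the oxygen-binding site, gave 135 units in axr1-12 and 123 units in axr3-1, a log2 difference of 0.14. The cox2 gene, for the subunit that takes electrons from cytochrome c, gave 40.8 units in axr1-12 and 46.9 units in axr3-1, a log2 difference of -0.20, and did not pass the filter. The signs were opposite, and both sizes were within the 0.37 by which probe sets of a gene disagree.

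The ccb genes encode parts of the machinery that attaches haem to cytochromes c. In current nomenclature ccb206 is ccmB, a membrane subunit of a transporter, and ccb382, ccb203 and ccb452 are ccmFN1, ccmFN2 and ccmFC, pieces of the haem lyase. Of this group ccb382 gave 307 units in axr1-12 and 338 units in axr3-1, and ccb452 gave 102 and 104 units. Both passed the filter, at log2 differences of -0.13 and -0.02. The ccb206 set, just short of the filter, gave 43.9 units in axr1-12 and 59.7 units in axr3-1 and was 1.36-fold lower in axr1-12. The 3 usable genes all had a lower signal in axr1-12, where 6489 of all 13429 usable probe sets were lower. Their median of -0.13 was inside the interquartile range of all usable probe sets, from -0.28 to 0.30, although ccb206, at -0.44, was below it. The ccb203 set gave 4.42 units in axr1-12 and 5.47 units in axr3-1, at background on both arrays.

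The single member with a symbol beginning with orf was orfX, now named mttB, which encodes a membrane protein related to the TatC subunit of the twin-arginine protein export system. It gave 85.2 units in axr1-12 and 107 units in axr3-1 and was 1.25-fold lower in axr1-12, a log2 difference of -0.33.

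**Figure D3:**
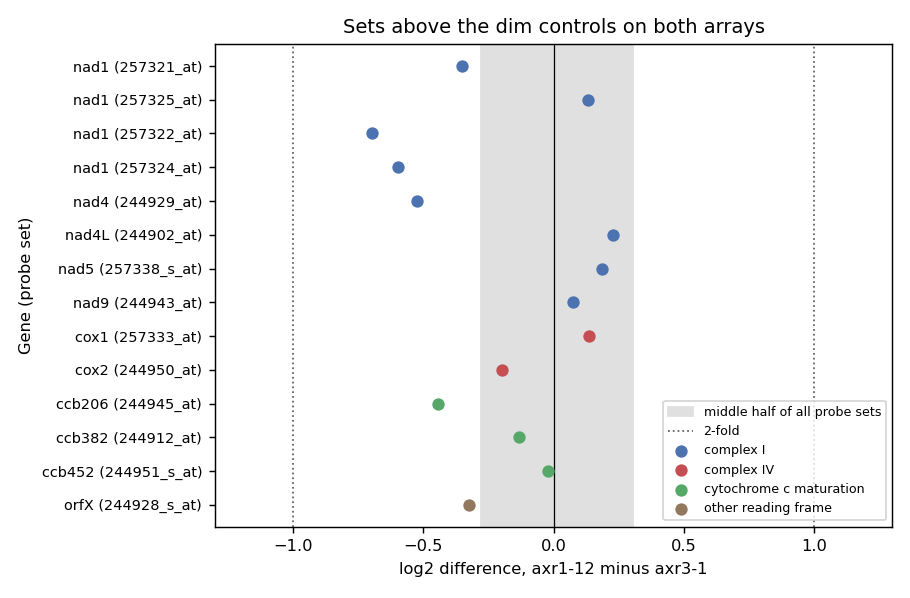
Log2 difference, axr1-12 minus axr3-1, of the 14 probe sets above the dim controls on both arrays, coloured by complex. The grey band is the interquartile range of all such probe sets of the array, from -0.28 to 0.30, and dotted lines mark 2-fold. No point reaches 2-fold, and the points furthest to the left are nad1 sets and nad4.

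At the gentler threshold of 1.5-fold, 2 of the 14 usable probe sets were lower in axr1-12, both of nad1, and 0 were higher. Among all 13429 probe sets above the dim controls on both arrays 10.5% were at least 1.5-fold lower and 10.3% at least 1.5-fold higher, so 2 of 14 is near the background. At 2-fold the background over these probe sets was 5.81%, against 0 of 14.

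In the gene order of the TAIR10.1 mitochondrial genome, 4 pairs of neighbouring protein genes were both members with usable signal. The ccb452, nad4 and orfX genes follow one another and had log2 differences of -0.02, -0.52 and -0.33. The neighbours cox2 and ccb206 were at -0.20 and -0.44. The nad1 entry, by its brightest set, and cox1 had opposite signs, at -0.35 and 0.14. However, that entry marks only a part of the trans-spliced nad1 gene, and the usable nad1 set 257325_at, at 0.13, had the sign of cox1. By the brightest sets the signs were the same in 3 of the 4 pairs. The strand of the genes was not used, and 3 pairs say nothing about shared transcription.

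Nuclear copies limit what any of these sets can tell. In Col-0 a nearly complete copy of the mitochondrial genome sits near the centromere of chromosome 2, so a probe for a mitochondrial gene can match nuclear sequence as well. In the annotation 12 further probe sets listed a mitochondrial gene together with a second gene, and in 11 of them the partner lay on chromosome 2. The rule left them out. Of the 5 members with the suffix for shared probes, 3 were usable, with a median log2 difference of -0.02 from -0.33 to 0.19, and the 11 usable sets without it had a median of -0.20. Whether transcripts of the nuclear copy add to either was not tested.

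Apart from those listed with nad1, the 12 excluded sets filled in parts of the mitochondrial genome that the members do not cover. Of the 12, 9 were usable, among them the nad1 set 265229_s_at at a log2 difference of -0.59. For the ATP synthase, the enzyme driven by the proton gradient of the respiratory chain, the set with atp9 gave 289 units in axr1-12 and 254 units in axr3-1, and the set with atp1 gave 209 and 238 units. For complex III, the set with cob, the gene for cytochrome b, gave 45.1 units in axr1-12 and 58.0 units in axr3-1. The third large subunit gene of complex IV, cox3, gave 41.1 and 44.9 units in axr1-12 and axr3-1. These 4 sets differed by 1.09- to 1.28-fold, 3 lower and 1 higher in axr1-12.

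Among ribosomal protein genes in these sets, rpl2 was at 75.6 units in axr1-12 and 107.3 units in axr3-1, a log2 difference of -0.50. The rps4 set was at 129 and 95.1 units in axr1-12 and axr3-1, a log2 difference of 0.45. The set listed with rps3 and rpl16 gave 162 and 194 units, and that with rpl5 gave 72.5 and 77.2 units. The sets with rps7 and rps12 were not above the dim controls. Over the 9 usable sets the median was -0.18 and the range -0.59 to 0.45. Pooled with the members this made 23 usable probe sets, of which 7 were higher and 16 lower in axr1-12, with a median of -0.18 and none at 2-fold. Among all 13429 probe sets above the dim controls 6940 were higher and 6489 lower, the median was 0.02 and 5.81% differed 2-fold. Since several sets read the same gene, they are not 23 independent observations.

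The plastid-encoded genes gave a different picture on the same arrays. In axr1-12 the signal was lower for all 62 plastid genes past the filter, for 28 of them at least 2-fold, where 3.09% of all probe sets past the filter were at least 2-fold lower, with a median log2 difference of -0.93 and a range from -2.19 to -0.02. With the brightest probe set standing for each gene, 53 of these were lower than every mitochondrial gene past the filter. The other 9 were inside the mitochondrial range. A further nad1 probe set past the filter, 257322_at, was at -0.70, so fewer than 53 were lower than every mitochondrial probe set. Plastid sets were mostly brighter. When only the 15 plastid genes with a mean log2 signal in the mitochondrial range, from 5.99 to 8.33, were taken, their median was -1.35, and 14 of the 15 were lower than every mitochondrial gene past the filter. No test of the difference between the genomes is possible with 1 array per line.

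**Figure D4:**
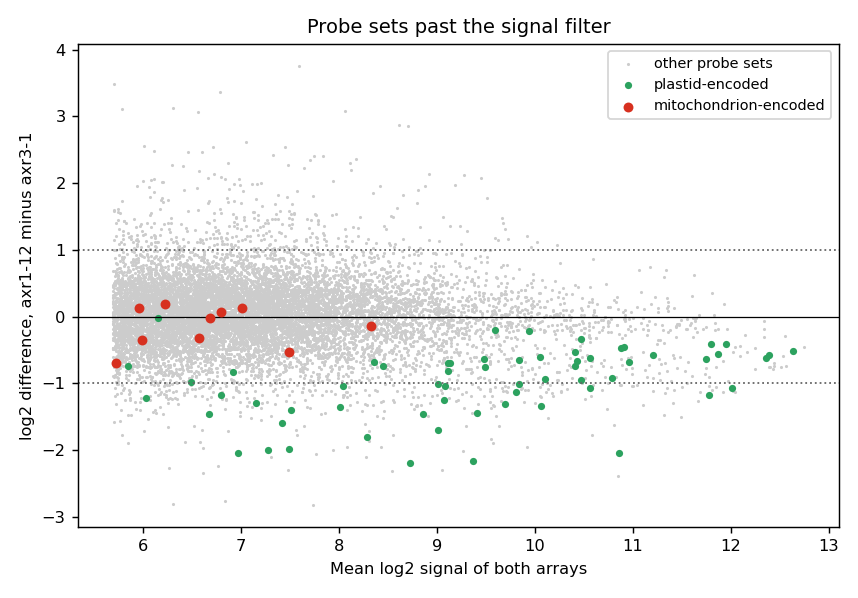
Log2 difference, axr1-12 minus axr3-1, against mean log2 signal for all 11373 probe sets past the filter, with the 62 plastid-encoded and 10 mitochondrion-encoded probe sets coloured. Dotted lines mark 2-fold. The plastid points lie below 0 throughout, whereas the mitochondrial points lie between -0.70 and 0.19, within the cloud of other probe sets.

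Control probe sets differed between the arrays too. The probe set for 25S ribosomal RNA of the cytosol, which like mitochondrial mRNA lacks long poly(A) tails, gave 549 units in axr1-12 and 1101 units in axr3-1. The 18 hybridisation spike sets had a median of -0.60, from -0.82 to -0.24, all lower in axr1-12. The part of either in the mitochondrial values was not tested.

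Genes of the nucleus whose products work in mitochondria were taken from 10 lists with 238 entries. Of these, 23 matched a probe set by exact symbol under a single gene name, and 16 passed the filter. The other entries were not matched, which does not show that the array lacks them, since 8730 probe sets had no gene listed. Of the 16, 9 were higher and 7 lower in axr1-12, none differed 2-fold, and the median log2 difference was 0.13, from -0.70 to 0.50. Over all probe sets past the filter 6.35% differed 2-fold and the median was 0.02, so 0 of 16 is near the background. The lists for mitochondrial import and for ATP synthase had 0 genes matched to a probe set, so their genes were not measured here. The complex IV list had 1 matched gene, and it did not pass the filter.

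The nuclear partners of complex I were FRO1, a subunit of the complex, and GLDH, an enzyme of ascorbate synthesis that also takes part in complex I assembly. FRO1 gave 389 units in axr1-12 and 549 units in axr3-1, 1.41-fold lower in axr1-12, and GLDH gave 97.9 and 83.0 units, 1.18-fold higher. Their signs were opposite.

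Complex II, which has no mitochondrion-encoded member here, was represented by SDH1-1, the flavoprotein, and the iron-sulphur proteins SDH2-1 and SDH2-2, at log2 differences of 0.14, 0.22 and -0.21. The largest of these was SDH2-1, with 398 units in axr1-12 and 342 units in axr3-1. The cytochrome c genes CYTC-1 and CYTC-2, whose products the ccb genes help to mature, were at 0.14 and -0.15, and MPPBETA, a core subunit of complex III that also cleaves import signals, was at -0.04.

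Of the alternative NAD(P)H dehydrogenases, which bypass complex I, NDB2 gave 66.4 units in axr1-12 and 47.1 units in axr3-1, 1.41-fold higher. NDB1 gave 100 units in axr1-12 and 123 units in axr3-1, 1.23-fold lower, and NDC1 was 1.18-fold higher. In the TCA cycle list, LTA3, an acetyltransferase subunit of mitochondrial pyruvate dehydrogenase, gave 71.4 units in axr1-12 and 115.9 units in axr3-1. It was 1.62-fold lower, the largest difference of the 16, while MAB1 of the same enzyme complex was 1.09-fold higher. IDH-V, a subunit of isocitrate dehydrogenase, was 1.16-fold higher.

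Among nuclear factors of mitochondrial gene expression, only PPR336, a protein of mitochondrial ribosomes, passed the filter, 1.17-fold higher in axr1-12. OTP43 and OTP87 did not pass it and were added after their values were seen. OTP43, which is needed for trans-splicing of the first nad1 intron, gave 6.92 units in axr1-12 and 31.0 units in axr3-1, so it exceeded the dim controls by a small margin in axr3-1 only. OTP87, an editing factor, gave 26.4 and 31.6 units in axr1-12 and axr3-1. OSB1, which restrains recombination of mitochondrial DNA, was 1.04-fold lower.

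**Figure D5:**
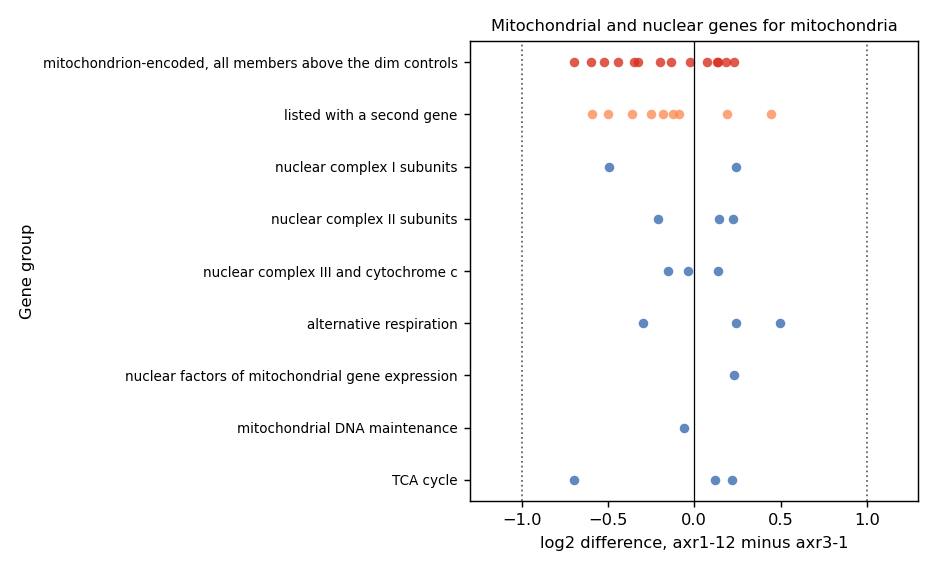
Log2 difference, axr1-12 minus axr3-1, of the 14 usable member probe sets, the 9 usable sets listed with a second gene, and the 16 nuclear genes for mitochondria past the filter by list. Each point is 1 probe set, dotted lines mark 2-fold, and every group with more than 1 point has points on both sides of 0.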

How the data were processed

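Per the submitters' processing notes the authors used MAS5, with no version named, and deposited linear intensities, 1 for each probe set. The trimmed mean of both columns, leaving out 2% at each end, was 100.0, so scaling preceded deposit. Detection calls were not used here. Of 22810 probe sets, 64 controls were left out. Names came from the platform's annotation: 13513 probe sets had 1 gene, 503 several and 8730 none listed. Members were matched to the TAIR10.1 assembly by symbol or synonym.

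The axr1-12 signals were divided by their median ratio to axr3-1 over all non-control probe sets (a log2 shift of -0.002), signals under the 25th percentile (15.3 units) were raised to it, and log2 was taken, with numpy 2.4.6 and pandas 2.3.3. The brightest probe set stood for a gene. Every member was named. Of each nuclear list, genes at least 2-fold apart, or otherwise up to 2 with the largest difference, were to be named, and others are given beside them for completeness. The procedure was tested on simulated data. The changes placed there were larger than those of any usable member and lay only in the brighter probe sets. That test therefore does not show how well the member values were measured. The alternatives tried were quantile scaling, loess scaling (statsmodels 0.14.6), the scale as deposited, a pseudocount or no floor, other filters and thresholds, and other choices of probe set. The members and lists were chosen with earlier results of these data known. With 1 array per line no test was made.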

Additional observations from a re-analysis of the deposited data

Results flagged for a closer look

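The cytosolic 25S ribosomal RNA control, a probe set outside the comparison of genes, gave 549 units in axr1-12 and 1101 units in axr3-1, far above the 29.4 units of the highest dim bacterial control. It drew attention because it is a signal in data that the comparison does not use. Samples of a line could not be compared with each other, since each line had 1 array.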

How the results depend on the processing

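The 44 alternative values of the medians over the member genes, the complex I genes, the cytochrome c maturation genes and the nuclear genes moved by less than the 0.37 by which probe sets of a gene disagree. Since the main medians, in that order -0.08, -0.14, -0.08 and 0.13, were themselves smaller in size than 0.37, this does not show that they are stable. The member median stayed between -0.13 and -0.01. The complex I median ran from -0.35, with plain _at probe sets only, to 0.07, with nad1 left out or with sets above the dim controls, both chosen after seeing the data, so its sign is not settled. Under all the scalings, filters and thresholds run, 0 member genes, each by its brightest probe set, were past the threshold in either direction. By single probe sets, 2 of the 14 usable ones, both of nad1, were at least 1.5-fold lower. Without the filter, nad2 and ccb203 lay under the floor on both arrays, which fixed their difference at 0. Of 70 alternative values of the 14 usable probe sets 1 changed sign, that of nad9, from 0.07 to -0.00026 under quantile scaling, and the largest move was 0.07 under quantile or loess scaling and 0.16 with a pseudocount of 16. Of 115 alternative values over all 23 members, 8 moved by more than 0.37, all of dim sets. They were 4 values without the floor (matR, the dimmer nad5 set, nad2 and nad1 257327_at) and 4 with the pseudocount (nad1 257329_at in place of nad2), and no size is given because none of these sets was above the dim controls on both arrays. Signal over background thus leaves 5 of the 16 genes (nad2, nad6, nad7, ccb203 and matR) without a usable value.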
